A study of Caenorhabditis elegans with 2 samples.

Results

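The genes described are the col genes of Caenorhabditis elegans, the large numbered family of cuticle collagen genes. Members were all protein-coding genes of the WBcel235 assembly whose symbol is col followed by a number, and 156 of 19973 protein-coding genes met this rule. The binding data come from chromatin immunoprecipitation with sequencing (ChIP-seq) of SKN-1 tagged with eGFP. The material was whole L3 larvae, males and females pooled, from strain OP342, which carries unc-119(ed3) on chromosome III and the transgene wgIs342. There was 1 group of 2 biological replicates, and both carried the same alleles. The labels do not give the promoter of the transgene, and the control library was not used here. Whole animals were used, so binding in the epidermis, where most cuticle collagens are made, cannot be told apart from binding in other tissues.

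Cuticle collagens are short secreted proteins built around triplet repeats that begin with glycine (Gly-X-Y). The epidermis secretes and crosslinks them into a new cuticle before each molt. SKN-1 is a transcription factor related to the mammalian Nrf proteins. It is known for stress defence genes, and long-lived insulin pathway mutants need it for raised collagen expression. It binds DNA as a monomer, at sites that resemble part of a bZIP site.

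The annotation bore out the collagen part of the family label, while whether each member is a cuticle collagen was not checked. A run of at least 10 consecutive Gly-X-Y triplets was encoded by 155 of 156 col genes (99.4%), against 203 of 19973 protein-coding genes (1.02%). The longest run in a col gene's product had a median of 21 triplets. Median protein length was 304 residues for col genes and 329 residues for all protein-coding genes. The col genes were also shorter, with a median gene length of 1220 bp against 2027 bp.

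A summit is the base at which a called peak is highest. A gene was counted as having a promoter summit when 1 lay in its promoter window, which starts 1000 bp before and stops 200 bp after each annotated 5′ end. Of the 4 ce11 peak lists used, the IDR-thresholded list is named for a threshold on the irreproducible discovery rate, a measure of replicate consistency. Its lines are exactly the strongest 1778 of the pooled list. A peak in it thus stands there by its pooled signal, and need not have a match in each replicate. The pooled list and the 2 replicate lists are longer and permissive. Only 4 col genes had a promoter summit of the IDR-thresholded list, and are called bound below for short: col-38 (WBGene00000615), col-8 (WBGene00000597), col-71 (WBGene00000647) and col-2 (WBGene00000593). The 101 bases centred on each of these summits are shown because they are the whole thresholded promoter evidence for the family. They are plus-strand ce11 sequence, written 5′ to 3′, with the last 5 letters of the SKN-1 consensus (ATCAT or GTCAT, either strand) in capitals.
col-38, chrII:8569450-8569550: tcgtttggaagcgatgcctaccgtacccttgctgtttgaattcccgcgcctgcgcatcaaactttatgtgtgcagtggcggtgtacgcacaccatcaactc
col-8, chrIII:7021410-7021510: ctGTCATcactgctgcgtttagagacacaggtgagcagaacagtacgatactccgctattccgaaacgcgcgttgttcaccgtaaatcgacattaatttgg
col-71, chrII:3502789-3502889: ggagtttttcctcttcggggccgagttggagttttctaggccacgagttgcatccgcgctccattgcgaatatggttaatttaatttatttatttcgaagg
col-2, chrIV:10085851-10085951: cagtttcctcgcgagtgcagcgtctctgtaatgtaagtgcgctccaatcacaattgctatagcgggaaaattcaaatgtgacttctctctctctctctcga
Only the sequence at col-8 held this core. None of the 4 held the full consensus of 8 letters, which is 2 letters that are A or T, then T, then A or G, then TCAT.

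In the IDR-thresholded list 4 of 156 col genes (2.56%, Wilson 95% interval 1.00 to 6.41%) had a promoter summit, against 1547 of 19973 protein-coding genes (7.75%, interval 7.38 to 8.12%). All protein-coding genes include the col genes in each such comparison. In the pooled list the count was 47 col genes (30.1%, interval 23.5 to 37.7%), against 9154 genes in all (45.8%). In the replicate 1 list it was 36 col genes (23.1%, interval 17.2 to 30.3%), against 7248 genes in all (36.3%). In the replicate 2 list it was 48 col genes (30.8%, interval 24.1 to 38.4%), against 9068 genes in all (45.4%). The share of col genes was below that of all genes in each of the 4 lists. No summit of any list fell in the promoter window of 76 col genes (48.7%), against 8143 genes in all (40.8%). With a single group there was no test between conditions. The intervals cover counting error over genes, which are not independent replicates.

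**Figure D1:**
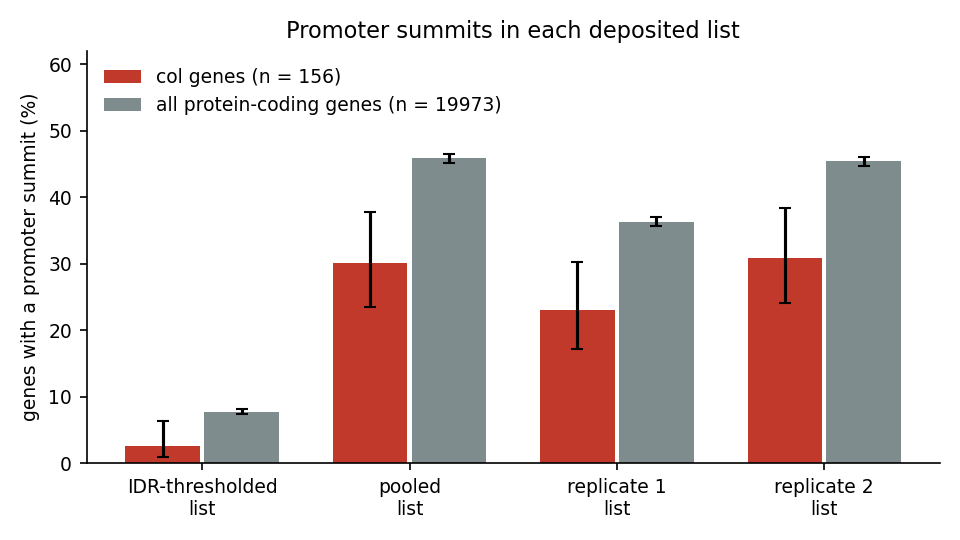
Share of genes with at least 1 summit in the promoter window (y axis, percent) in the 4 deposited lists (x axis), for col genes (red) and all protein-coding genes (grey), with Wilson 95% intervals as error bars. The col gene bars stand at 2.56, 30.1, 23.1 and 30.8%, each below the grey bar beside it.

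The col promoter windows were somewhat smaller in total, because 136 col genes (87.2%) had a single annotated 5′ end, against 73.7% of all genes. The mean window covered 1266 bp for col genes and 1453 bp for all genes. Counted per kb of window, the IDR-thresholded list had 0.0206 summits at col genes and 0.0447 at all genes. The pooled list had 0.263 summits per kb at col genes and 0.415 at all genes. The col genes thus had fewer summits per kb as well as per gene.

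The strongest of the 4 thresholded summits lay upstream of col-38. Its peak spanned chrII:8569335-8569664, with a signal value of 53.6, the authors' own score for a peak. It ranked 387 of 1778 in the IDR-thresholded list. Signal values can be set side by side within a list only, so the replicates are compared by rank. The summit was 412 bp upstream of col-38 and 427 bp upstream of rpl-5, which encodes a protein of the large ribosomal subunit and is transcribed the other way. In replicate 1 the matching summit, within 100 bp, had a signal value of 8.96 and rank 1670. In replicate 2 it had a signal value of 41.8 and rank 342. The 2 non-coding RNA genes F54C9.16 and F54C9.17 are annotated over the summit, which otherwise lies between protein-coding genes.

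The summit at col-8 was second, with a signal value of 46.8 and rank 537 for the peak at chrIII:7021295-7021624. It lay 860 bp upstream of col-8, in an intron of rfl-1, which encodes a subunit of the enzyme that activates the ubiquitin-like protein NEDD8. Transcripts of rfl-1 start on both sides of the summit, and the start downstream of it is 425 bp away. The first start of rfl-1, upstream of the summit, is closer, but the summit lies beyond the 200 bp its window covers downstream. Signal values were 10.7 in replicate 1 (rank 1100) and 37.0 in replicate 2 (rank 476).

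The peak at col-71, chrII:3502674-3503003, had a signal value of 32.1 and rank 1247. Its summit lay 269 bp upstream of col-71 and 129 bp upstream of Y49F6B.2. The matching summits had signal values of 10.6 in replicate 1 (rank 1119) and 21.4 in replicate 2 (rank 1569). This was the only one of the 4 that ranked higher in replicate 1 by more than a few places.

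The peak at col-2, chrIV:10085736-10086065, was the weakest, with a signal value of 27.5 and rank 1715. The lowest signal value in the whole IDR-thresholded list was 26.9. The summit lay 450 bp upstream of col-2, whose transcript is known from dauer larvae, and 236 bp upstream of ndc-80, which encodes a kinetochore protein. Signal values were 8.14 in replicate 1 (rank 2055) and 18.7 in replicate 2 (rank 2057). The thresholded list was made from the same 2 libraries, so a match in both replicates is partly built into these 4 members.

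All 4 bound col genes had the same arrangement. Each lies on the minus strand, head to head with a non-collagen gene on the plus strand, with 398 to 839 bp between the closest 5′ ends. In each case the summit fell in the promoter window of both genes, although at col-8 it lay beyond the first 5′ end of rfl-1. A summit in such a region does not show which gene it serves. No col gene had a thresholded promoter summit of its own, against 755 protein-coding genes (3.78%) that had a summit in no other gene's window. Shared summits are common in general, since 792 of all 1547 genes with a thresholded promoter summit (51.2%) had only shared ones. When each summit was given only to the gene with the nearest 5′ end, col-38 alone remained.

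**Figure D2:**
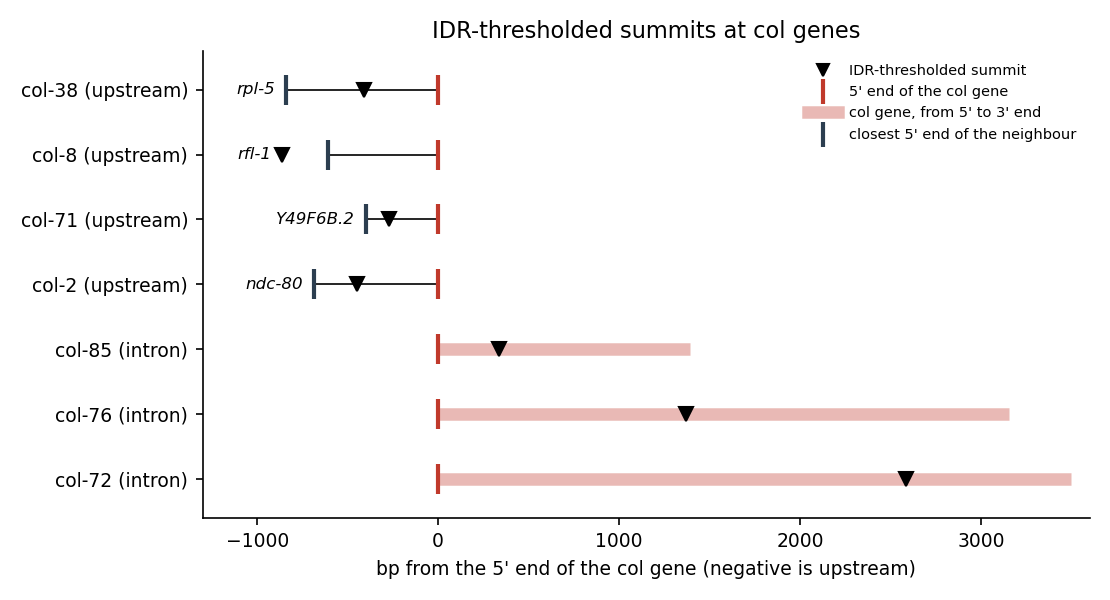
Position of the 7 thresholded summits in the promoter windows or bodies of col genes (black triangles), in bp from the 5′ end of the col gene (x axis, negative upstream), with 1 gene per line. The upper 4 lie upstream, between the col gene (red tick) and its head-to-head neighbour (dark tick) except at col-8, where the summit lies beyond the first 5′ end of rfl-1. The lower 3 lie within col genes (pale bars).

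Head-to-head neighbours within 1000 bp were found for 24 of 156 col genes (15.4%), against 3729 of all protein-coding genes (18.7%). Among these, 4 of 24 col genes (16.7%, interval 6.68 to 35.9%) had a thresholded promoter summit, against 699 genes in all (18.7%, interval 17.5 to 20.0%). Among genes without such a neighbour it was 0 of 132 col genes, which allows a share of up to 2.27%, against 848 of 16244 genes in all (5.22%). For head-to-head genes the col share was thus near that of all genes, and for the other genes it was below it. In the pooled list 8 head-to-head col genes (33.3%) had a promoter summit, against 60.0% of all head-to-head genes. For genes without such a neighbour the pooled share was 29.5% of col genes and 42.6% of all genes. Whether these gaps differ between the arrangements was not tested. The col genes col-3 and col-117, named after their values were seen, face each other 588 bp apart, and neither had a summit in the IDR-thresholded or pooled list.

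Signal was lower at the col genes that had a pooled summit. The strongest pooled promoter summit had a median signal value of 6.80 over 47 col genes (quartiles 5.36 and 10.2), against 10.9 over 9154 genes in all (quartiles 6.64 and 20.6). The highest value was 53.6 at a col gene, col-38, and 493 over all genes. Of the 47 col genes, 35 had a value below 10, a cut just under the median of 10.9 over all genes. The share of all genes below this cut was not counted. The median rank in the pooled list was 16567 for col genes and 7946 for all genes. The pooled list has 30000 lines, so a typical col summit sat in its lower part. The highest q-value score in the list, 3.78 on the −log10 scale, was reached at 6 col genes (3.85%), against 2431 genes in all (12.2%). These 6 were the 4 bound genes, col-185 and col-63.

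**Figure D3:**
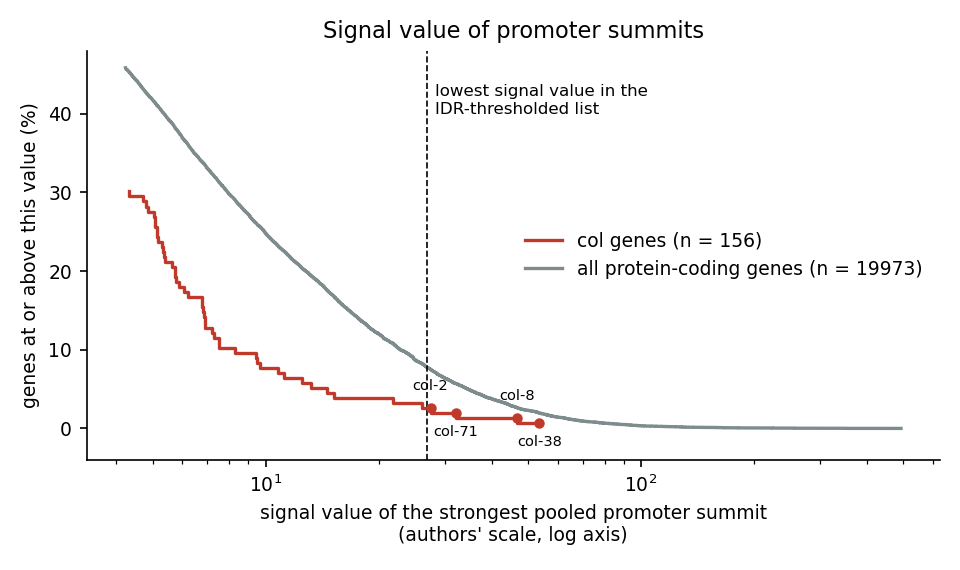
Percent of genes (y axis) whose strongest pooled promoter summit had at least the signal value on the x axis (authors' scale, log axis), for col genes (red) and all protein-coding genes (grey). The red curve starts at 30.1% and lies below the grey curve, and the 4 labelled genes lie right of the dashed line at 26.9, the lowest value in the IDR-thresholded list.

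Each replicate showed the same order on its own. In replicate 1 the strongest promoter summit had a median signal value of 3.43 over 36 col genes and 4.40 over all genes with one. In replicate 2 the medians were 4.44 over 48 col genes and 7.91 over all genes with one. The replicates also overlapped less at the col genes. A promoter summit in both replicate lists was found for 15 col genes, which is 41.7% of those in replicate 1 and 31.3% of those in replicate 2. Over all genes the shares were 71.4% of replicate 1 and 57.1% of replicate 2. No comparison at equal signal was made.

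A pooled summit with a match within 100 bp in both replicates was found for 10 col genes (6.41%, interval 3.52 to 11.4%), against 3247 genes in all (16.3%). Besides the 4 bound genes these were col-185, col-63, col-167, col-141, col-80 and col-119. The first of them, col-185, had a signal value of 26.1 and rank 1896, just under the 1778 lines of the thresholded list. Its summit lay 876 bp upstream, over a tRNA gene and the non-coding gene H06A10.3. Its signal value was 2.26 in replicate 1 (rank 19641) and 23.2 in replicate 2 (rank 1346), a far higher rank in replicate 2.

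The pattern was alike at col-63, with a pooled signal value of 21.9 and values of 3.16 in replicate 1 and 15.9 in replicate 2. That summit lay 733 bp upstream, in an untranslated exon of ceh-8, a homeobox gene. The other 4 were weaker. The pooled signal value was 15.2 at col-167, 177 bp upstream, and 11.2 at col-141, whose summit is also in the window of dmsr-15. It was 9.49 at col-80, in an intron of dph-2, and 6.75 at col-119, in an intron of pdzd-8. Between the weakest bound gene, col-2 at 27.5, and the strongest gene outside the thresholded list, col-185 at 26.1, the values differed by little.

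**Figure D4:**
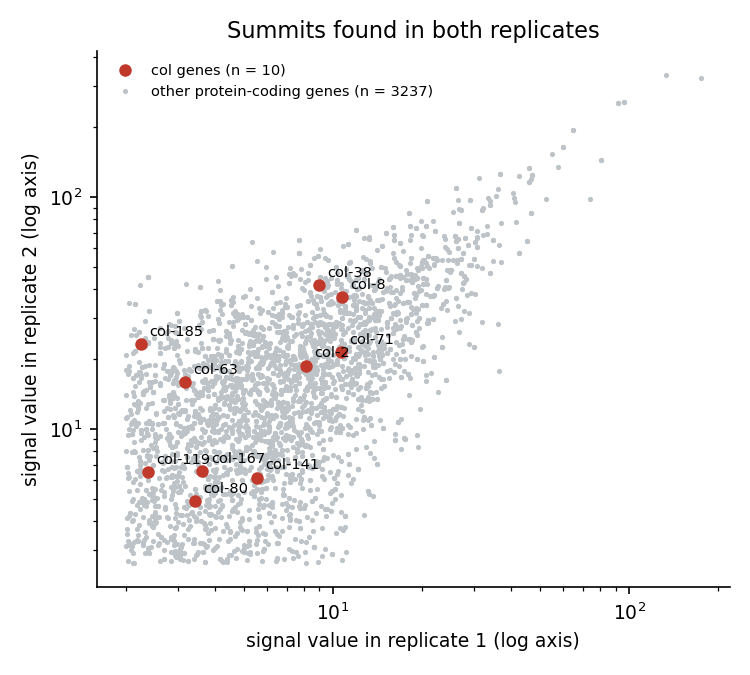
Signal value in replicate 1 (x axis) and replicate 2 (y axis), both log axes on the authors' scale, of the strongest pooled promoter summit matched in both replicates, for 10 col genes (red, labelled) and 3237 other protein-coding genes (grey). Of the col genes, col-38, col-8, col-71 and col-2 lie within the upper part of the grey cloud. Both col-185 and col-63 are high in replicate 2 only. The other 4 lie lower in replicate 2, and col-141 has the highest replicate 1 value among them, 5.54.

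The strongest pooled summit was taken at each of the 47 col genes with one. It matched a summit in replicate 2 only at 12 genes, in replicate 1 only at 7 and in neither at 18. By annotation it lay between genes at 34, in introns at 6, in coding exons at 5 and in untranslated exons at 2. Another protein-coding gene shared it at 10. These counts were not made over all genes, so they describe the col genes only. The neighbouring genes col-183 and col-184 shared a single summit with a signal value of 5.72.

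Summits were less concentrated just upstream of col genes than upstream of protein-coding genes in general, a difference for which no test was run. From 400 bp upstream to the outermost 5′ end, the pooled list had 0.337 summits per gene per kb at col genes and 0.649 at all genes. From 2000 to 1000 bp upstream it had 0.231 at col genes and 0.303 at all genes. Replicate 1 gave 0.240 near col genes against 0.474 near all genes, and 0.212 further upstream of col genes against 0.233 upstream of all genes. Replicate 2 gave 0.337 near col genes against 0.630 near all genes, and 0.237 further upstream of col genes against 0.305 upstream of all genes. The gap was thus wider close to the gene start in both replicates, over only 21 pooled summits near col genes and 36 further upstream of them.

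**Figure D5:**
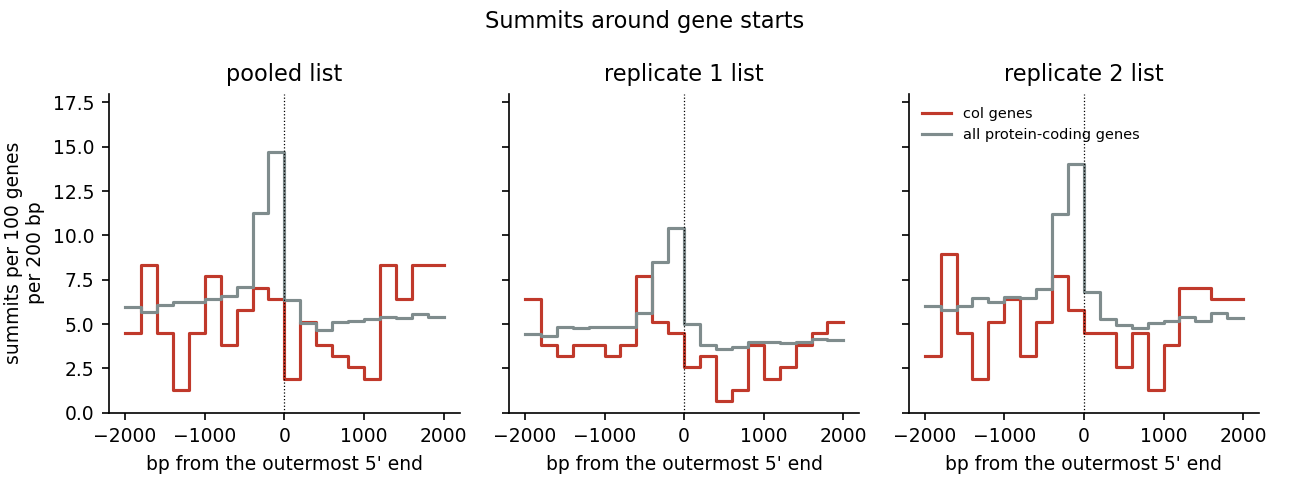
Summits per 100 genes in bins of 200 bp (y axis) by distance from the outermost 5′ end (x axis, bp, negative upstream), in the pooled list and in each replicate list, for col genes (red) and all protein-coding genes (grey). The grey line peaks just upstream of the 5′ end in each panel, and the red line is not highest there.

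The full consensus was present in the promoter windows of 77 of 156 col genes (49.4%, interval 41.6 to 57.1%), against 53.2% of all protein-coding genes. Both strands were searched. The GATA site TGATAA, a motif of intestinal and epidermal GATA factors, was present in 122 col windows (78.2%), against 75.4% of all windows. Base composition was alike, with 63.6% A and T in col windows and 64.7% in all windows. These windows differ in length between genes, with a median of 1201 bp in both sets.

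At the summits themselves the consensus was rare. Its centre lay within 50 bp of the strongest pooled summit at 3 of 47 col genes (6.38%), against 658 of 9154 genes in all (7.19%). Of the promoter summits in the IDR-thresholded list, 146 of 1171 (12.5%) had it at this distance. The 3 col genes were col-125, col-97 and col-96, named for the match after their values were seen. Their sequences follow with the consensus in capitals, together with that of a thresholded summit in an intron of col-76 described next. Each is 101 bases of the plus strand of ce11.
col-125, chrIV:11225334-11225434: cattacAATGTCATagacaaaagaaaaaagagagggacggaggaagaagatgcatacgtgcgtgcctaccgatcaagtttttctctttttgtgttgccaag
col-97, chrIII:12994025-12994125: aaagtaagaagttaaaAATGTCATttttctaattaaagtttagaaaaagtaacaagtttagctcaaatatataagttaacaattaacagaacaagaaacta
col-96, chrIII:11706729-11706829: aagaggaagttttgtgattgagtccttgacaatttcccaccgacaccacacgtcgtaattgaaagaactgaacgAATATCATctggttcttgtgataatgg
col-76 intron, chrII:8205661-8205761: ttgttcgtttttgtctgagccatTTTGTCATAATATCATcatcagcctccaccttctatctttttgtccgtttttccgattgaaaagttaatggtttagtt
The pooled signal value was 12.5 at col-125, 6.04 at col-97 and 4.81 at col-96, so the 3 matches lay at summits outside the thresholded list. The intron of col-76 held 2 matches side by side. The 5-letter core alone lay within 50 bp of the summit at 18 of 47 col genes (38.3%), against 36.1% of all genes with a pooled summit. A match describes the letters only, and is neither a binding site nor a cause.

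Within gene bodies outside the promoter window, 3 col genes (1.92%) held a thresholded summit, against 1.27% of all genes. All 3 lay in introns on chromosome II, and were named after their values were seen. The strongest, in col-85, had a signal value of 43.5 and rank 658, 337 bp downstream of the 5′ end. A tRNA gene and the non-coding gene T21B4.19 are annotated at that summit. Its signal value was 12.2 in replicate 1 and 32.1 in replicate 2. The summit in col-76 had a signal value of 34.7 and rank 1071, 1372 bp into the gene. It had a signal value of 31.2 in replicate 2 and no match in replicate 1. The summit in col-72 had a signal value of 31.3, 2585 bp into the gene, and lay 205 bp from the 5′ end of W09G10.9, in that gene's promoter window. In the pooled list 30 col genes (19.2%) had a summit in the body, against 35.7% of all genes. Per kb of gene body the pooled list had 0.181 summits in col genes and 0.248 in all genes, while the thresholded list had 0.0155 in col genes and 0.00525 in all genes, the first value resting on those 3 summits.

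The col genes lie on all 6 chromosomes. The 4 bound members were on chromosomes II (2 of 24 col genes), III (1 of 12) and IV (1 of 41). The all-gene thresholded share was 7.45% on II, 11.9% on III and 7.19% on IV. None of the 21 on chromosome I, 31 on V or 27 on X was bound, against 10.7% of all genes on I, 4.65% on V and 7.36% on X. The pooled share was lowest on chromosome I, at 19.0% of col genes against 50.8% of all genes there. It was highest on chromosome V, at 41.9% of col genes against 37.7% of all genes, the only chromosome where the col share was the higher. Runs of col genes less than 10000 bp apart held 50 members in 21 runs. None of these was bound in the thresholded list and 18 (36%) had a pooled summit. Of 106 single col genes 4 were bound and 29 (27.4%) had a pooled summit. With only 4 bound col genes, the lack of one in runs does not set runs apart from single genes. The difference was not tested, and no share over all genes in such runs was computed.

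Genes of collagens, the cuticle and molting were taken from 6 lists, the last of which holds col genes only. None of 20 other cuticle collagens with mutant phenotypes (bli, dpy, rol and sqt genes and lon-3) had a thresholded promoter summit. A pooled one was found at 12 (60%), with a median signal value of 7.58. Over all genes the shares were 7.75% thresholded and 45.8% pooled, with a median signal value of 10.9. The pooled share of this list lay above that of all genes, unlike that of the col genes, but over 20 genes only and without a test. A pooled summit matched in both replicates was found at 3 of the 20, against 16.3% of all genes. None of 3 basement membrane collagens had a thresholded summit, and cle-1, named after its value was seen, had a pooled one with a signal value of 11.1. Of 11 genes that process collagen, pdi-2 had one (9.09%) and 3 had a pooled summit (27.3%). The protein disulfide isomerase encoded by pdi-2 is a subunit of the enzyme that hydroxylates collagen prolines. Its summit lay 19 bp upstream of the 5′ end, in no other protein-coding gene's window, with a signal value of 36.3 (rank 963), 9.33 in replicate 1 and 31.5 in replicate 2. None of 11 other cuticle genes had a thresholded summit, and 6 had a pooled one (54.5%).

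Of 13 regulators of molting and epidermal development, myrf-1 had a thresholded summit (7.69%, near the 7.75% of all genes) and 8 had a pooled one (61.5%, against 45.8% of all genes). The myrf-1 gene encodes a membrane-bound transcription factor needed for larval development. Its summit lay 323 bp upstream with a signal value of 42.3 (rank 697), 9.49 in replicate 1 and 30.5 in replicate 2. The last list held 4 collagens whose expression has been tied to longevity, all of them members. None had a thresholded summit. The pooled signal value was 9.64 at col-144, 24 bp upstream, 6.86 at col-10 and 5.64 at col-120, whose summit lies in a coding exon of flh-1, while col-13 had no pooled summit. Of these 3 summits only that of col-10 matched a replicate, which was replicate 2. Within the 6 lists, thresholded summits were found at pdi-2 and myrf-1 and at none of the listed collagens, in lists too short to be set apart from the 7.75% of all genes. The pooled shares of the lists rest on as few genes and were not tested.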

How the data were processed

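ChIP-seq peak lists of 2 biological replicates in 1 group were used on ce11. The ce10 versions were not used. Per the labels the material was whole L3 larvae. The aligner, caller, thresholds and read depth, not given in the sources used here, could not be checked, and the precision that depth gives is unknown. The signal value is the authors' deposited score per peak, with no stated scale, and was compared only within a list. The deposited q-values are on a −log10 scale, and the summit offset is a deposited position from the peak's start. The authors deposited 1778 lines in the IDR-thresholded list, which were exactly the strongest 1778 of the pooled list's 30000. The replicate lists held 22350 and 30000 lines. The pooled and replicate lists include background by the depositors' own naming.

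Gene models were those of Ensembl release 115 (WBcel235, the same assembly as ce11), with protein-coding transcripts only. Summits were assigned to promoter windows with Python 3.11.15, numpy 2.4.6, pandas 2.3.3 and scipy 1.17.1, and figures were drawn with matplotlib 3.10.9. Summits of 2 lists were matched within 100 bp. Wilson intervals were at 95%, and a count of 0 was given the limit that 3 counts allow. The assignment was checked on planted summits. Genes named were every col gene with a thresholded promoter summit, up to 10 col genes with the strongest pooled summits matched in both replicates (6 existed), the longevity collagens, list genes with a thresholded summit, and the neighbours that share a summit. Others are said to have been named after their values were seen. The members and lists were chosen with earlier results of these data known. Alternatives changed the window, the assignment, the threshold, the matching distance, the motif distance and the replicates used. Summits in no other gene's window, genes with the Gly-X-Y repeat and the 5-letter core were alternatives added after the data were seen.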

Additional observations from a re-analysis of the deposited data

How the results depend on the processing

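The count of 4 col genes with a thresholded promoter summit was 1 when only the nearest gene was used, 2 in the stronger lines above the list's median signal value and 0 for summits in no other gene's window. With the same number of strongest lines of a single replicate's list it ranged from 3 to 4, and col-38, col-71 and col-8 stood in both. Replicate 2 alone also gave col-185, while col-2 stood in neither. The all-gene share was 5.70, 4.25 and 3.78% under the first 3 settings and 7.67 and 6.81% in replicates 2 and 1 alone. The count was 3 with 500 bp upstream, against 6.32% of all genes, and 5 with 2000 bp upstream, against 10.1%. It was also 5 when the peak interval had only to overlap the window, against 8.21% of all genes. The pooled count of 47 was 29 with 500 bp upstream, against 36.5% of all genes, and 6 at the highest q-value, against 12.2% of all genes, where fewer lines are counted. The stronger lines above the median of each replicate list gave 16 col genes in replicate 1, against 23.7% of all genes, and 19 in replicate 2, against 31.9%. The 10 col genes matched in both replicates became 5 with 500 bp upstream, 6 with the nearest gene only and 6 with matching within 50 bp, where the counts over all genes were 2600, 2527 and 2215, against 3247. The median signal value of 6.80 was 29.8 at the highest q-value, against 31.0 over all genes, where few col genes are left. The consensus near the strongest summit was found at 5 col genes within 100 bp, against 13.1% of all genes with a pooled summit. The 5-letter core was found at 18 col genes within 50 bp, against 36.1%. Of the cuticle list genes, myrf-1 alone (1 gene) was left above the list's median, and single replicates gave 2 to 3 genes. Among the alternatives, 14 values moved by more than 1.5 times and 18 by no more than that. Among the latter was the pooled count, which was 70 of 156 col genes with 2000 bp upstream, against 56.8% of all genes. With the nearest gene only it was 38, against 39.2% of all genes. Where no reason is given, the cause was not tested. No paired analysis was possible because there is 1 group only. Without read depth, a col gene with no summit cannot be called unbound.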

Other observations

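Outside the col genes, 48 protein-coding genes encoded at least 10 consecutive Gly-X-Y triplets. A pooled promoter summit was found at 24 of these (50%) and a thresholded one at 1 (2.08%), E02D9.1, named after its value was seen, with a signal value of 64.6. Over all genes the shares were 45.8% pooled and 7.75% thresholded. The blister collagen gene bli-6, named after its values were seen, had a pooled signal value of 26.8 and rank 1791, just under the 1778 thresholded lines. Its signal value was 17.4 in replicate 1 (rank 349) and 9.12 in replicate 2 (rank 6713), and its summit was shared with hrpf-2.

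The col gene without the repeat in the Ensembl models was col-17, whose coding sequence there gave 277 residues. The RefSeq coding sequence gave 283 residues and a run of 21 triplets.

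Some col genes had summits close to the 5′ end in replicate 1 that had no match within 100 bp in replicate 2. The summit at col-44 lay 4 bp upstream with a signal value of 7.24 and rank 2613. That at col-51 lay 68 bp upstream with a signal value of 5.29, and elsewhere in its promoter window replicate 2 had 2 summits. In replicate 2 the summit at col-109 lay 76 bp upstream with a signal value of 9.97 and had no match in replicate 1. These genes were named after their values were seen.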
